A study of Mus musculus with 8 samples.

Results

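Voltage-gated sodium channels are described here through 8 of their subunit genes in utricles, the gravity-sensing organs of the mouse inner ear. The 8 genes were matched by symbol among 48823 gene identifiers: the pore-forming subunit genes Scn1a, Scn3a, Scn8a, Scn9a and Scn11a, and the beta subunit genes Scn2b, Scn3b and Scn4b. RNA-seq compared 4 libraries from embryos of genotype Rest(+/deltaExon4), called mutant below, with 4 libraries from wild-type embryos. The mutants are heterozygous for a loss of exon 4 of Rest, and no other allele or agent is named for either group. Both groups carry a C57BL/6 strain label and an age of E15.5 (embryonic day), except that the label of wild-type replicate 4 reads C57BL/7 and E15.6. Each library pooled RNA of whole utricles from 7 to 9 mice, so hair cells, supporting cells, nerve fibres, glia and mesenchyme were measured together.

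A voltage-gated sodium channel has a large pore-forming subunit that opens when the membrane depolarises and then closes itself within milliseconds, which drives the rising phase of an action potential. Small beta subunits with an immunoglobulin-like extracellular domain bind to it, tune its gating and its number at the surface, and also act as cell adhesion molecules. The proteins of Scn2b and Scn4b are joined to the pore-forming subunit by a disulfide bond, and that of Scn3b binds without one. Vestibular ganglion neurons fire action potentials with these channels, and immature hair cells of rodents carry sodium currents as well. REST is a repressor of neuronal genes that binds a DNA element called RE1, and this element was first described in a sodium channel gene.

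The libraries held 20365225 to 24557189 read pairs on genes. Read pairs outside genes made up 11.9% to 18.3% of mutant libraries and 18.4% to 22.2% of wild-type libraries, without overlap, so genotype and this difference cannot be told apart. Rest itself was at 127 ± 3.20 CPM (mutant; CPM, counts scaled to a common library size by TMM factors) and 116 ± 7.34 CPM (wild type) (SD, 4 libraries per genotype, adjusted p by edgeR = 0.465), and gene counts cannot show the loss of an exon. All 20 hair cell markers of a list were detected. At an edgeR adjusted p under 0.05, mutant libraries had lower RNA of 1.11% of the 16990 genes tested and more of 0.153%, and 7.88% had mutant and wild-type libraries that did not overlap. Of the 8 subunit genes 7 passed the filter on low counts and were tested, and Scn4b did not pass it.

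Among the subunits, the beta subunit gene Scn3b was lower in the mutant utricles and no other member passed the threshold. This was 1 of 2 beta subunits tested and 0 of 5 pore-forming subunits. No member was called higher, and 1 of the 7 tested had groups that did not overlap. The abundant beta subunit gene Scn2b had close means in both genotypes, while the pore-forming Scn11a had a higher mean in the mutants that did not pass. The median log2 change of the 5 pore-forming genes was -0.37, against -0.0027 over all genes tested. This median is the value of Scn8a, and the 5 values ran from -0.67 to 0.87 with none past the threshold. It therefore does not show a fall of the class.

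**Figure D1:**
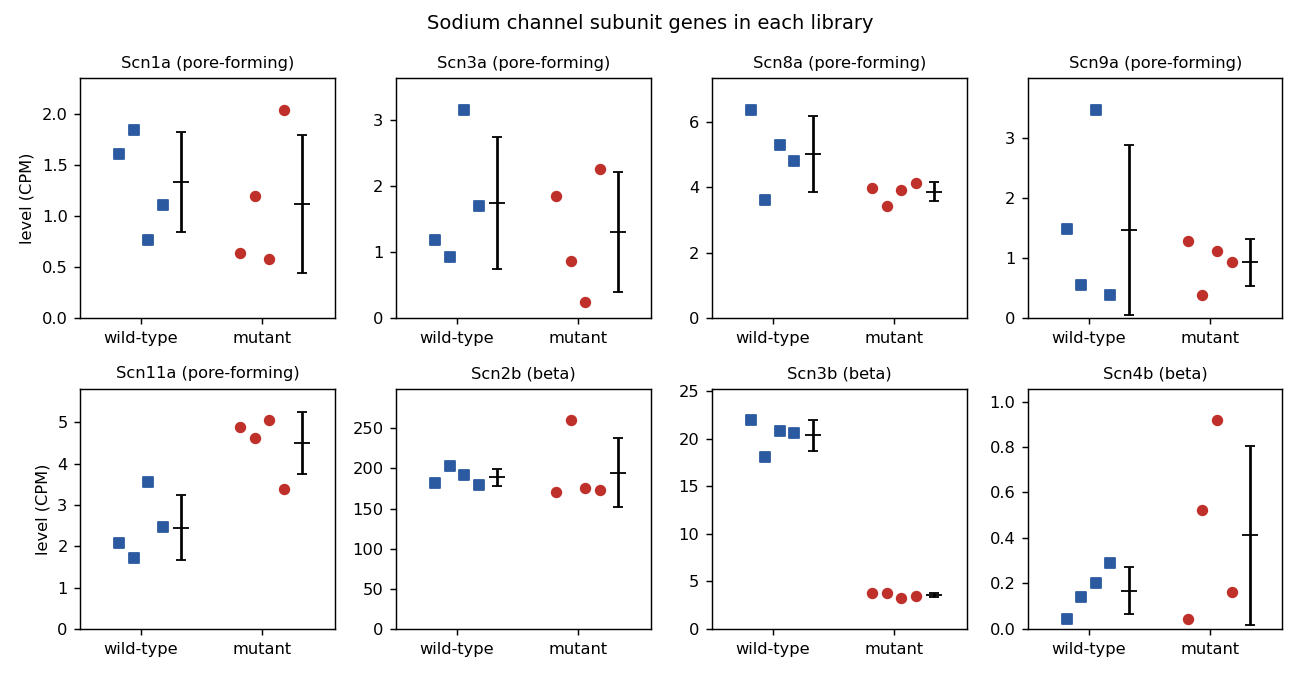
Level of each of the 8 subunit genes in each library, in CPM with TMM scaling on a linear axis from 0 that differs between panels; squares are the 4 wild-type and circles the 4 mutant libraries, and bars give mean and SD. Scn3b is at 18.1 to 21.9 CPM in wild-type and 3.29 to 3.82 CPM in mutant libraries, and in the other 7 panels the groups overlap.

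Scn3b (ENSMUSG00000049281, chromosome 9, 40269217 to 40291618, plus strand, GRCm38) was at 21.9, 18.1, 20.8 and 20.6 CPM in wild-type replicates 1 to 4, and at 3.72, 3.82, 3.29 and 3.47 CPM in mutant replicates 1 to 4. Every mutant library lay below every wild-type library, and the spread within each group was small, with a coefficient of variation of 7.97% in wild-type and 6.68% in mutant libraries. These levels rest on 392 to 516 read pairs in each wild-type and 79 to 87 in each mutant library in the counts as deposited. The mutant mean was 17.6% of the wild-type mean. The log2 change was -2.51 ± 0.13 (SE), which is a fold of 0.145 to 0.213 at 95% confidence (edgeR adjusted p = 1.31e-06). By adjusted p it ranked 3 among all genes tested, and by size of the fall 27 among the 189 genes called lower. RNA of Scn3b remained detectable in all mutant libraries.

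Markers of ganglion neurons, 21 genes with none at 0, summed to 647 to 1007 CPM in wild-type and 448 to 517 CPM in mutant libraries, without overlap, and 4 of the 21 fell (Nefl, Nefm, Stmn3 and Sncg) and 0 rose (median log2 change -0.88). The signs were mixed, with positive values for 6 of the 21 and negative values for 15. Of the positive ones, the transcription factor gene Isl1 was at 147 ± 13.4 CPM (mutant) and 146 ± 12.6 CPM (wild type). Pou4f1, also positive, was at 30.7 ± 9.66 CPM (mutant) and 30.1 ± 4.10 CPM (wild type). Of the negative ones, Nefm was at 100 ± 3.30 CPM (mutant) and 253 ± 27.1 CPM (wild type), and Stmn3 at 3.04 ± 0.799 and 16.6 ± 5.99 CPM. Isl1 and Pou4f1 were picked outside the rule for named genes, and none of these examples stands for the list. Without the neurofilament genes Nefl and Nefm, left out after their values were seen, the sums were 298 to 557 CPM in wild-type and 288 to 349.9 CPM in mutant libraries, with overlap. Both genes were called lower, so leaving them out narrowed the gap by construction, and no conclusion is drawn from the overlap. Wild-type replicate 3 held the most (the other 3 had 647 to 756 CPM), and its Scn3b was at 20.8 CPM, within the range of its group. Without that library the log2 change of Scn3b was -2.50 ± 0.14 (SE, edgeR adjusted p = 2.09e-05). Hair cell markers summed to 1117 to 1269 CPM in wild-type and 1027 to 1201 CPM in mutant libraries, with overlap, and of 19 tested 3 fell (Otof, Slc17a8 and Ptprq) and 1 rose (Pvalb, median -0.16). Supporting cell, mesenchyme and glia markers had 0 calls, erythroid markers 0 of 9, and muscle markers 1 of 9, Myog, which rose. The part of either cell type in the fall of Scn3b was not tested. In such bulk samples, fewer cells of a type and less RNA per cell cannot be told apart.

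**Figure D2:**
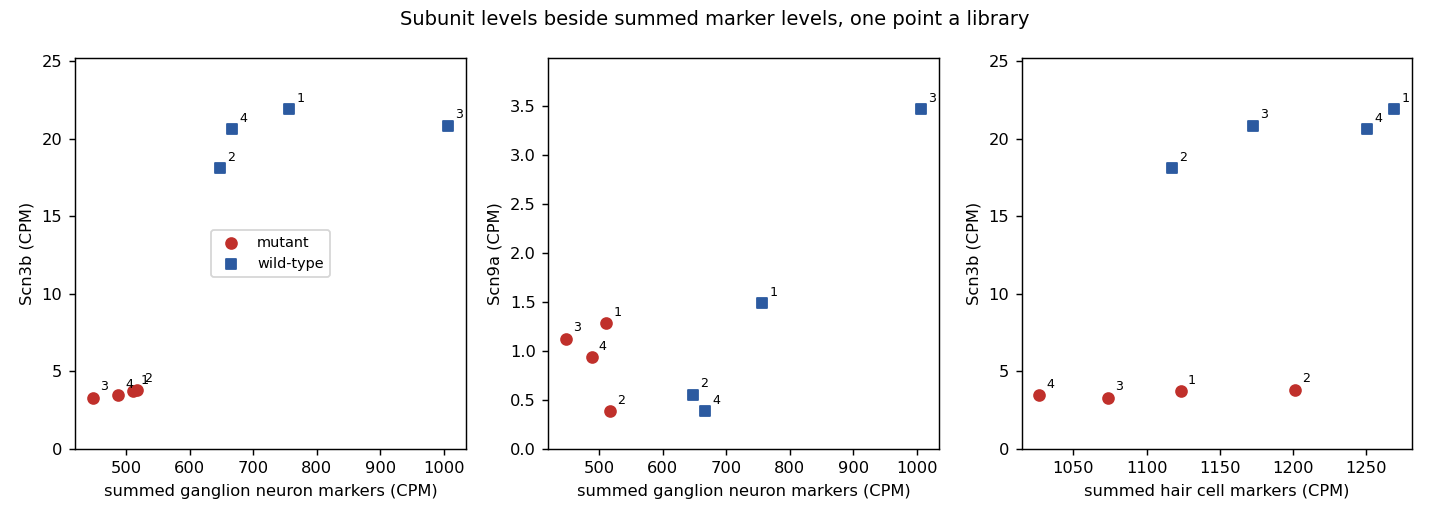
Each point is a library, numbered by replicate; the vertical axes give Scn3b (left and right) and Scn9a (middle) in CPM, and the horizontal axes the summed CPM of 21 ganglion neuron markers (left, middle) or 20 hair cell markers (right). Wild-type replicate 3, with the highest neuron sum of 1007 CPM, has the highest Scn9a at 3.47 CPM, and a Scn3b of 20.8 CPM within the range of its group.

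The 5′ ends of the members' transcripts were searched for letters like the RE1 motif, written as TTCAGCACC, 2 free bases and GGACAGCGC, on both strands and in the first 300 bases of each protein-coding GENCODE transcript. The search and its limit were chosen after the data were seen. With at most 4 mismatches in the 18 fixed letters, Scn3b was the only member with a match. It lies in the untranslated part of exon 1 of transcript Scn3b-202, at chr9:40269741-40269760 on the minus strand (GRCm38). The 20 bases are shown with those of Scn8a, the member next closest to the motif, and of Scn2b and Scn11a, the other members with the highest level per length, read 5′ to 3′ in the direction of the motif. Those of Scn8a lie in coding sequence of exon 1 at chr15:100936523-100936542 (plus strand), those of Scn11a in coding sequence of exon 2 at chr9:119819848-119819867 (minus strand), and those of Scn2b across the junction of exons 1 and 2, with the intron spliced out. Capitals mark letters equal to the motif.

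Scn3b: cTCAGCACCacGGACAGtag

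Scn8a: TTCAtCtaCggGGACAtCcC

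Scn2b: TggtGCcCCcgGGgCgGaGC

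Scn11a: ggCAGCAaCtgaGcCccaGC

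The window of Scn3b has 4 mismatches, that of Scn8a 5, that of Scn2b 7 and that of Scn11a 8, and those of Scn1a, Scn3a, Scn9a and Scn4b have 6 or 7. Of 58200 such transcript starts 0.94% held a match with at most 4 mismatches, which is 347 of 21746 genes. Of these genes 282 were tested, 10 were lower (3.55%, against 1.11% of all genes tested) and 0 higher in the mutants, and their median log2 change was 0.01. Scn3b is itself among these 10, and the limit of 4 mismatches equals its own number. The share is thus a description that is not independent of Scn3b, and a link between the motif and the fall was not tested. RefSeq promoters (GRCm38.p6, 250 bases before to 50 after the start) were listed for 6 members, all but Scn3a and Scn3b, and the closest windows there had 6 to 8 mismatches; 0.481% of 32851 promoters held a match. A match is a likeness of letters and no measurement of binding.

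The genes on either side of Scn3b on chromosome 9 did not pass the threshold. Gramd1b, whose nearer end lies 1.61 kb after Scn3b, was at 36.1 ± 3.87 CPM (mutant) and 42.3 ± 6.50 CPM (wild type) (SD, 4 libraries per genotype, adjusted p by edgeR = 0.443). Zfp202, 55.6 kb before it, was at 5.49 ± 0.755 and 5.86 ± 0.778 CPM (edgeR adjusted p = 0.862).

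Scn2b (chromosome 9, 45117782 to 45130070, plus strand) was by far the most abundant member. It was at 182, 203, 192 and 179.7 CPM in wild-type replicates 1 to 4 and at 171, 259.8, 175 and 173 CPM in mutant replicates 1 to 4. Mutant replicate 2 stood above all other libraries, and the other 3 mutant libraries lay just below the wild-type range. The means were 189 ± 10.5 CPM in wild-type and 195 ± 43.4 CPM in mutant libraries (SD, 4 libraries per genotype), a log2 change of 0.04 ± 0.13 (SE, edgeR adjusted p = 0.921). The 95% interval of the fold, 0.847 to 1.25, does not include a change of the size seen for Scn3b. Without mutant replicate 2 the log2 change was -0.12 ± 0.07 (SE, adjusted p = 0.428), and without TMM factors it was -0.0075.

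Scn4b, whose protein contributes to the resurgent sodium current of fast-firing neurons, lies 8.33 kb after Scn2b on the same strand and was barely detected. It had 1, 3, 5 and 6 read pairs in wild-type replicates 1 to 4 and 1, 11, 22 and 4 in mutant replicates 1 to 4. The mutant libraries thus spread from the wild-type level to several times above it. The 22 read pairs of mutant replicate 3 have an exact 95% Poisson interval of 13.8 to 33.3, which covers counting error only. With no filter on low counts the log2 change was 1.29 with an edgeR adjusted p of 0.583, so no difference was detectable with these counts and this spread between libraries.

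On a scale that allows genes to be compared, CPM per kilobase of annotated exon, the family was dominated by Scn2b. In wild-type libraries Scn2b was at 40.6 ± 2.26, Scn3b at 3.73 ± 0.297, Scn11a at 0.413 ± 0.134 and Scn8a at 0.318 ± 0.0729 CPM per kb (SD, n = 4). Scn3a followed at 0.140 ± 0.0797, Scn1a at 0.120 ± 0.0436, Scn9a at 0.115 ± 0.111 and Scn4b at 0.0338 ± 0.0210 CPM per kb. Scn2b lay above 92.4% of the 16955 tested genes with an annotated length and Scn3b above 51.4%, whereas Scn11a and Scn8a lay above 11.7% and 8.44%. Scn2b exceeded Scn3b by 10.9 times and Scn3b exceeded Scn11a by 9.02 times without overlap of libraries. From Scn11a downward each neighbour in the order overlapped the next in wild-type libraries.

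The order changed in the mutant libraries where Scn3b was concerned. There Scn11a, at 0.756 ± 0.126, came next after Scn2b and before Scn3b, at 0.655 ± 0.0438 CPM per kb (SD, n = 4), with ranges that overlapped; with the longest transcript as length, Scn3b still came next after Scn2b. Of the summed level of the 8 genes, Scn3b made up 8.22% ± 0.926 in wild-type and 1.53% ± 0.235 in mutant libraries, and Scn2b 89.3% ± 1.39 and 95.3% ± 0.854 (SD, 4 libraries per genotype). There were 9.77 to 13.2 units of Scn2b for each unit of Scn3b in wild-type libraries and 53.8 to 79.8 in mutant libraries. These shares restate the fall of Scn3b on a common scale and were not tested.

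**Figure D3:**
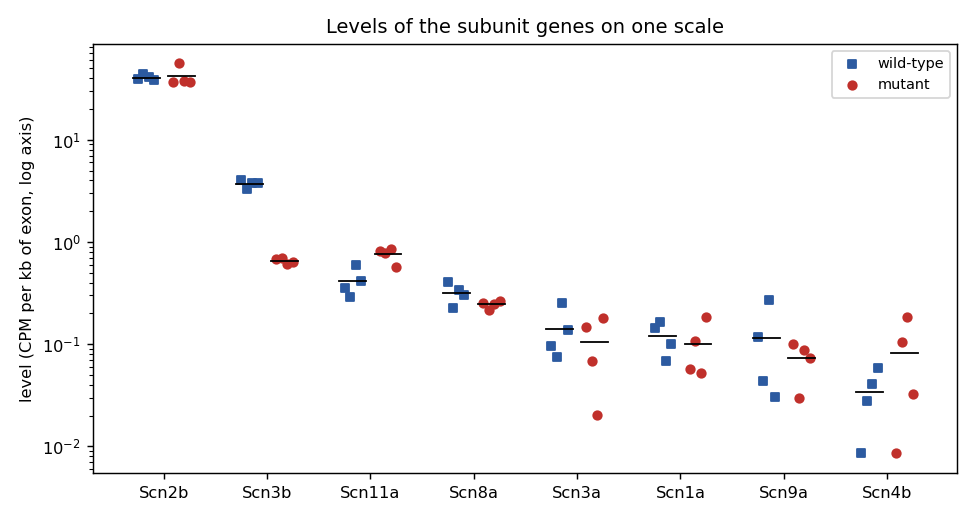
Level of the 8 subunit genes in CPM per kilobase of exon on a logarithmic axis, ordered by the wild-type mean; each point is a library, squares wild-type and circles mutant, and lines give group means. Scn2b is near 40.6 CPM per kb in wild-type libraries, Scn3b drops from 3.73 to 0.655, and the pore-forming genes and Scn4b lie below 1.

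Summed by class, the beta subunits were at 42.4 to 46.9 CPM per kb in wild-type and 37.4 to 56.6 in mutant libraries, and the pore-forming subunits at 0.799 to 1.53 and 1.20 to 1.38. RNA of beta subunits thus exceeded that of the 5 pore-forming genes by 29.5 to 58.7 times in wild-type and 27.1 to 47.0 times in mutant libraries, with overlap. Without Scn2b, the beta sum was 3.34 to 4.02 in wild-type and 0.669 to 0.804 CPM per kb in mutant libraries. In wild-type libraries it lay above the pore-forming sum of the same genotype, and in mutant libraries below it, without overlap in either.

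Scn11a encodes a channel resistant to tetrodotoxin that carries a persistent current in pain-sensing neurons. It lies on chromosome 9 (119753759 to 119825456, minus strand) and was at 2.08, 1.71, 3.55 and 2.47 CPM in wild-type replicates 1 to 4. In mutant replicates 1 to 4 it was at 4.88, 4.63, 5.04 and 3.39 CPM. The groups overlapped through wild-type replicate 3 and mutant replicate 4, and 3 of the 4 mutant libraries lay above all wild-type libraries. The log2 change was 0.87 ± 0.25 (SE, unadjusted p = 0.00533 by edgeR's quasi-likelihood test across all genes), with an adjusted p of 0.166, and 13.1% of all genes tested had an unadjusted p under 0.05. Across 17 alternative settings the adjusted p ran from 0.0406 to 0.374 and only DESeq2 called it higher. Without wild-type replicate 3 the log2 change was 1.10 ± 0.25 (SE, edgeR adjusted p = 0.0898). Of the summed pore-forming level, Scn11a made up 31.6% to 42.2% in wild-type and 45.0% to 67.5% in mutant libraries, a description without a test.

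Scn8a, the main pore-forming subunit of mature nodes of Ranvier, lies on chromosome 15 (100869858 to 101045938, plus strand). It was at 6.37, 3.60, 5.29 and 4.79 CPM in wild-type and at 3.98, 3.44, 3.92 and 4.13 CPM in mutant replicates 1 to 4. The mutant libraries lay within or below the wild-type range, and only wild-type replicate 2 lay among them. The log2 change was -0.37 ± 0.20 (SE, edgeR adjusted p = 0.457), with a 95% interval of the fold of 0.568 to 1.05.

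The other 3 pore-forming genes lie on chromosome 2, with Scn1a and Scn9a 39.2 kb apart on the minus strand, and all were low. Scn9a, a channel of pain-sensing and sympathetic neurons, was at 1.49, 0.553, 3.47 and 0.387 CPM in wild-type and at 1.28, 0.382, 1.13 and 0.939 CPM in mutant replicates 1 to 4. Wild-type replicate 3 stood above all other libraries, with 86 read pairs (exact 95% Poisson interval 68.8 to 106) against 8 to 35 in the rest. The log2 change was -0.67 ± 0.63 (SE, edgeR adjusted p = 0.687), and without that library it was 0.20 ± 0.55. An antisense gene, Gm13629, shares 180 exon bases with Scn9a, and reads of the 2 genes cannot be told apart by strand.

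Scn3a, a channel prominent in the embryonic brain, was also highest in wild-type replicate 3. It was at 1.19, 0.922, 3.15 and 1.69 CPM in wild-type and at 1.84, 0.859, 0.250 and 2.25 CPM in mutant replicates 1 to 4. The groups overlapped, and 6 read pairs in mutant replicate 3 (exact Poisson interval 2.20 to 13.1) against 55 in mutant replicate 4 (41.4 to 71.6) differ by more than counting error. The log2 change was -0.42 ± 0.58 (SE, edgeR adjusted p = 0.799), and 0.04 ± 0.59 without wild-type replicate 3. Scn3a and Scn9a were thus highest in the library with the most ganglion marker RNA. Among wild-type libraries Scn11a was highest there as well, at 3.55 CPM, while Scn1a was lowest, at 0.767 CPM. Scn3b and Scn8a, there at 20.8 and 5.29 CPM, were highest in wild-type replicate 1, at 21.9 and 6.37 CPM. The part of neuron content in these levels was not tested.

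Scn1a, a channel of fast-spiking inhibitory neurons, was at 1.61, 1.84, 0.767 and 1.11 CPM in wild-type and at 0.642, 1.19, 0.584 and 2.04 CPM in mutant replicates 1 to 4. Wild-type replicate 3 was here the lowest of its group, and mutant replicate 4 the highest of all libraries. The log2 change was -0.25 ± 0.45 (SE, edgeR adjusted p = 0.853), and -0.72 ± 0.43 without mutant replicate 4 (adjusted p = 0.524). The 95% intervals of the fold were 0.427 to 1.65 for Scn1a, 0.309 to 1.81 for Scn3a and 0.241 to 1.65 for Scn9a. All include 1 and are wide. Falls and rises of any size within them could not be told from no change at this depth and spread.

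**Figure D4:**
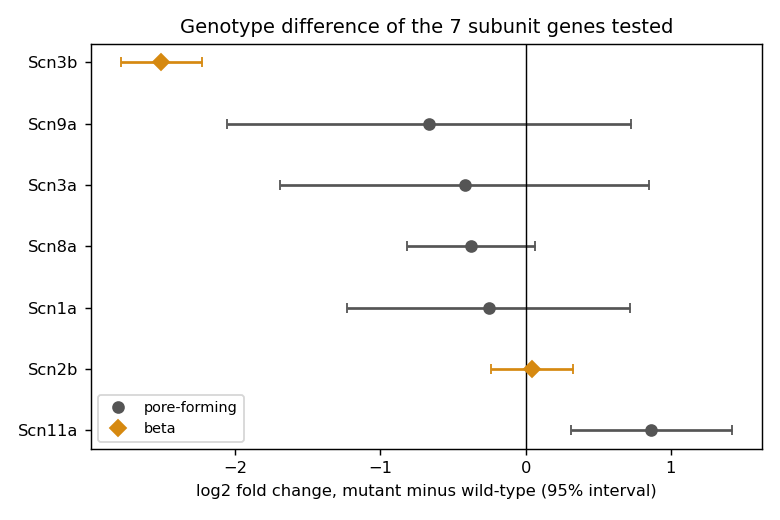
Log2 fold change (mutant minus wild-type) with its 95% interval, not adjusted for the number of genes, for the 7 subunit genes tested; circles are pore-forming and diamonds beta subunits. Scn3b lies at -2.51 with a narrow interval, Scn2b at 0.04, the intervals of Scn1a, Scn3a, Scn8a and Scn9a include 0, and that of Scn11a, at 0.87, lies above 0, although its adjusted p is 0.166.

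The list of further family genes held 7, among them the related leak channel gene Nalcn: 4 were tested and 0 passed in either direction (median log2 change -0.29). Nalcn, which sets the resting sodium leak of neurons, was at 21.0 ± 1.36 CPM (mutant) and 23.9 ± 1.14 CPM (wild type) (SD, 4 libraries per genotype, adjusted p by edgeR = 0.440). Genes that work with sodium channels were given by 6 further lists. Over these and the family, 51 genes were tested and none was lower or higher by edgeR's test, and 11 (21.6%) had an unadjusted p under 0.05, a level that 13.1% of the whole table reached.

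All 4 FGF homologous factors, which bind the tail of the pore-forming subunit and shift its inactivation, had negative values (median log2 change -0.26). Fgf13 was at 10.7 ± 1.20 CPM (mutant) and 14.9 ± 10.7 CPM (wild type), and Fgf14 at 7.89 ± 1.39 and 9.99 ± 0.567 CPM (SD, 4 libraries per genotype, adjusted p by edgeR = 0.648 and 0.368). Genes of the axon initial segment and node, where sodium channels cluster, had 0 of 13 past the threshold (median -0.14). Ank2, an ankyrin that anchors membrane proteins to spectrin, was at 119 ± 32.4 and 119.98 ± 3.27 CPM, and the spectrin gene Sptbn1 at 237 ± 25.0 and 237 ± 21.9 CPM.

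Secretases that cleave beta subunits had 0 of 9 past the threshold (median 0.05). Bace1, whose product cuts the beta subunits at the cell surface, was at 345 ± 69.3 CPM (mutant) and 369 ± 31.5 CPM (wild type), and Adam10 at 787 ± 139.7 and 656 ± 50.2 CPM (SD, 4 libraries per genotype, adjusted p by edgeR = 0.789 and 0.377). Without TMM factors 1 of the 9 was called lower. Channel regulators such as the ubiquitin ligase gene Nedd4 (1947 ± 163 and 1813 ± 151 CPM) and Dpysl2 (1763 ± 446 and 1777 ± 230.1 CPM) had 0 of 9 past the threshold (median -0.01). Unc79 and Unc80, partners of the leak channel, were at 0.385 ± 0.126 and 1.25 ± 0.660 CPM (mutant) and at 0.743 ± 0.228 and 2.40 ± 0.178 CPM (wild type), and neither passed (adjusted p = 0.364 and 0.325).

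The genes whose pattern over the 8 libraries was most like that of a member were found by the root mean square difference of centred log2(CPM + 0.5) values. For Scn3b these were Lhfpl4, a membrane protein gene of inhibitory synapses, the carbonic anhydrase gene Car7 and the transcript A430072P03Rik, with differences of 0.27, 0.28 and 0.29 against a median of 1.19 over all genes compared. Lhfpl4 was at 0.991 ± 0.275 CPM (mutant) and 7.22 ± 2.32 CPM (wild type), Car7 at 1.79 ± 0.423 and 13.0 ± 2.61 CPM, and A430072P03Rik at 3.03 ± 0.844 and 18.7 ± 3.10 CPM (SD, 4 libraries per genotype). All 3 were called lower in the mutants (edgeR adjusted p = 0.000371, 3.56e-05 and 5.35e-05). This follows from their selection by likeness to Scn3b over the same libraries and is no separate result.

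For Scn2b the nearest were Gm7292, the G protein gene Gna11 and the transcription factor gene Cux2 (differences of 0.05, 0.06 and 0.06). Selected in the same way, they too were highest in mutant replicate 2. Gna11 was at 149 ± 34.4 CPM (mutant) and 139.96 ± 3.74 CPM (wild type). Gm7292 was at only 0.540 ± 0.247 and 0.549 ± 0.0947 CPM, where the added 0.5 CPM shrinks log2 differences, so its likeness to Scn2b is weak. For Scn11a they were Klhl21, the immediate early gene Egr1 and the muscle regulator Myod1 (differences of 0.10, 0.13 and 0.15). Egr1 was at 4.72 ± 1.07 and 2.56 ± 0.876 CPM (SD, 4 libraries per genotype, adjusted p by edgeR = 0.192). Myod1 was at 0.799 ± 0.201 and 0.392 ± 0.247 CPM, with the same limit as Gm7292. For Scn9a they included Cend1 and Zfp619 (differences of 0.35 and 0.36).

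**Figure D5:**
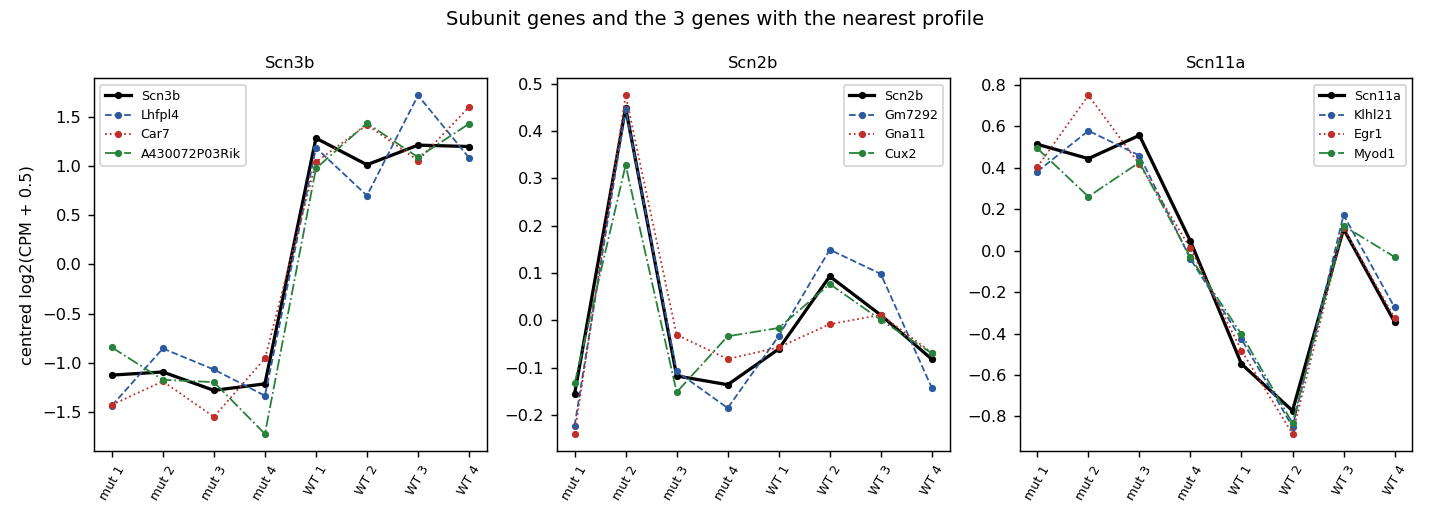
Centred log2(CPM + 0.5) of Scn3b, Scn2b and Scn11a (black) and of the 3 genes nearest to each, over 4 mutant and 4 wild-type libraries. The genes near Scn3b separate the genotypes, those near Scn2b peak in mutant replicate 2, and those near Scn11a are lowest in wild-type replicate 2. These shared patterns follow from the selection by likeness.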

How the data were processed

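The submitters' processing notes name STAR 2.5.2a and the build GRCm38.p4, and the authors deposited whole-number gene counts for each library; the annotation used for counting is not given in the sources used here. The unstranded column was used, since the strand-specific columns were in a ratio of 0.996 to 1.00 to each other. Lines that name no gene held 25.2% to 33.9% of read pairs and were left out. The authors also deposited a signal of counts divided by size factors, for 21369 genes in 7 libraries, without wild-type replicate 4. Each library was multiplied by a factor taken from its ratio to the deposited counts. After this step 100.0% of the values were whole reads (tolerance 0.001 reads) and equal to those counts. The count test on these reads, added after seeing the data, called 115 lower and 17 higher genes. It repeats the fit without wild-type replicate 4 for the genes of that signal.

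Genes were filtered with filterByExpr (minimum count 10, minimum total 15), scaled by TMM and tested with edgeR 4.0.16 in R 4.3.3 (quasi-likelihood test, robust, Benjamini-Hochberg over all 16990 genes tested, threshold 0.05). The SE is the log2 change over the square root of F, and the 95% interval uses the degrees of freedom of that test. DESeq2 1.42.0 and limma 3.58.1 were alternatives. Exon lengths came from GENCODE M21 (GRCm38), which held 48349 of 48823 identifiers. The test was checked on simulated counts. The members and gene lists were chosen with earlier results of these data known. The rule for named genes was: the members and Rest, for each list the called genes (at most 4) or the 2 most abundant, the 3 nearest profiles for members of at least 1 CPM, and the neighbours of called members; some genes named by this rule are not reported here, the family's remaining genes are given as counts, and marker lists without a call as sums or counts. Libraries are pools of mice, and p-values measure the spread between these pools. Intervals from counts cover counting error only.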

Additional observations from a re-analysis of the deposited data

Results flagged for a closer look

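Of 36 groups of 4 libraries examined (the 8 members, 3 library measures and 7 marker lists in each genotype), 3 held a library set apart from the rest by a gap larger than Dixon's 95% critical share of the group's range, and chance alone gives about 1 in 20. Scn2b in mutant replicate 2 was at 259.8 CPM, and in mutant replicates 1, 3 and 4 at 171 to 175 CPM. The summed supporting cell markers of wild-type replicate 1 were at 4655 CPM, and those of wild-type replicates 2 to 4 at 3931 to 4020 CPM. The summed erythroid markers of wild-type replicate 4 were at 6582 CPM, against 507 to 607 CPM; in that library Scn3b was at 20.6 CPM, within the range of its group.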

How the results depend on the processing

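Scn3b was lower in all 17 alternative settings, with log2 changes from -2.55 to -2.35 and adjusted p from 9.43e-66 (DESeq2) to 0.000234 (replicate block). Scn11a was called only by DESeq2 (log2 change 0.87, adjusted p = 0.0406), which made 1 member higher. With 8 fits that each left out a library, the log2 change ran from -0.82 to 0.04 for Scn3a and from -0.97 to 0.20 for Scn9a, both reversed without wild-type replicate 3 only (0.0404 and 0.20). It ran from -0.12 to 0.10 for Scn2b, reversed without mutant replicate 2 and, at -0.0075, without TMM factors. The number of lower genes ran from 109 to 159 and of higher genes from 12 to 33 in these fits. It was 411 lower and 153 higher with DESeq2, and 46 higher with no filter on low counts. With the reads recovered from the deposited signal it was 115 and 17. That setting repeats the fit without wild-type replicate 4, also 115 and 17, so it is not a separate one of the 17 settings. Replicate numbers were shared by the genotypes only as numbers: deviations of same-numbered libraries correlated at -0.0056, -0.103, 0.0554 and -0.12. With the replicate block 96 genes were lower and 15 higher, and no member's call changed. With the longest transcript as length, Scn2b made up 86.6%, Scn3b 10.5% and Scn8a 0.939% of the members' wild-type level. Without TMM factors 1 partner gene was lower. The causes were not tested. Scn1a, Scn3a, Scn9a and Scn4b had fewer than 100 read pairs in every library, and counting error and the spread between pools were not separated.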

Other observations

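The remaining members also had nearest profiles over the 8 libraries. For Scn1a these were Zfp729a, Ppp1r12b and Ust, with root mean square differences of 0.12, 0.17 and 0.19 on the log2 scale. For Scn8a they were Pou2f1, Ralyl and Wdfy1, at 0.08, 0.08 and 0.09, and Ralyl was at 6.74 ± 0.980 CPM (mutant) and 8.55 ± 1.54 CPM (wild type) (SD, 4 libraries per genotype, adjusted p by edgeR = 0.436). For Scn3a they were Zfp473, 4930404I05Rik and Gdf9, at 0.29, 0.33 and 0.34. None of these 9 genes passed the threshold.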
